A study of Mus musculus with 8 samples.

Results

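The genes described here are 38 genes of fat cells and of fat synthesis, measured in the pancreas-draining (pancreatic) lymph node of mice lacking the transcription factor Deaf1. They were taken by name and sorted into 14 genes that mark fat cells, 12 lipogenic enzymes that many tissues use, and 12 genes of lipid uptake, storage and control that fat shares with other tissues. Of these, 37 had a probe, 35 of them under the gene name in the files (Plin1 as Plin) and 2, Plin4 and Me1, under older names, and no probe was matched to Pck1. The brightest probe stood for each gene. Adrb3, the adrenergic receptor of fat cells, was well above background on 0 of 8 arrays in either channel and dropped out, which left 36 of the 18410 genes tested, 13 of them fat-cell genes, 12 lipogenic enzymes and 11 shared genes.

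All mice were BALB/c. Each of the 8 arrays set a Deaf1 knockout (KO) node, labelled with Cy5, against a pool of nodes of wild-type (WT) littermates of the same age, labelled with Cy3: 2 arrays at 4 weeks of age, with pools of 2 mice, and 3 arrays each at 12 and at 30 weeks, with pools of 3 mice. Values are log2 ratios of KO over WT pool, so that −1 is a ratio of 1 to 2, and fitted values carry the standard error (SE) of a limma model with 1 mean per age. A gene is called where its Benjamini-Hochberg adjusted p over all genes was under 0.05. No wild-type mouse was measured alone and the dyes were not swapped, so the tests leave out the spread of the controls and any dye bias.

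Fat cells make triglyceride in a line of steps: glucose and circulating lipid are taken up, fatty acids are built from acetyl units and then desaturated or elongated, and they are joined to a glycerol backbone. The product is kept in a droplet coated with perilipins and CIDE proteins, and lipases release it again. PPARγ and C/EBPα are the main transcription factors of the fat-cell programme, and mature fat cells also secrete hormones such as adiponectin, leptin and, in the mouse, resistin. Lymph nodes lie embedded in fat.

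Each array held 41174 probes, of which 37.2% to 62.6% were well above background in the WT channel and 46.8% to 71.4% in the KO channel, and the number of arrays limits the precision. All 14 lymphocyte marker genes were well above background in both channels of all 8 arrays. Of the 36 genes, 28 were so too. Deaf1 itself had a ratio of −0.17 ± 0.07 (SE) at 4 weeks, 0.34 ± 0.06 at 12 weeks and 0.10 ± 0.06 at 30 weeks. Whether its probes lie in the deleted part is not given in the sources used here, so they do not check the genotype. Replicate 2 of 12 weeks stood apart in sex-linked genes, with Xist at 5.32 and the Y-linked Ddx3y, Eif2s3y and Kdm5d at −3.89, −4.86 and −1.86. This is the pattern of a female KO node against a pool with male mice. On that array an effect of sex cannot be told apart from one of the knockout. Markers of pancreatic acinar cells ranged widely: the median of 14 such genes was −1.74 and −0.46 on the 4-week arrays, −0.33, 0.23 and 0.65 at 12 weeks, and −4.29, 3.96 and −4.65 at 30 weeks. Results are therefore also given without replicate 2 of 12 and of 30 weeks where a call is lost that way. Calls gained that way are only counted, with the processing alternatives. The 4-week arrays were on a slide and scanner of their own, so a difference between 4 weeks and later ages cannot be told apart from that batch.

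Promoters of 28 of the 38 genes, the 250 bases before each transcription start, were read from RefSeq (GRCm38.p6) and searched on both strands for 6 motifs. For 9 of them RefSeq gave more than 1 start, up to 3, and a gene counts as holding a motif where any of its promoters does. Of Cidec and Pparg the start with TTGCNNAA is printed. The letters TTGCNNAA, a form of the site of C/EBP factors, occurred in 4 of the 28 genes (14.3%) and in 10.8% of 27025 genes. All 4 were among the 10 fat-cell genes with a promoter, and none among the 18 others. Those 4 are printed as the genes that hold the letters, and Adipoq is printed as the gene against which the others are compared below. Whether C/EBP factors act on these promoters was not tested. Capitals mark TTGCNNAA and CCAAT, the CCAAT box, on either strand.
Adipoq, chr16:23146286-23146535, plus strand: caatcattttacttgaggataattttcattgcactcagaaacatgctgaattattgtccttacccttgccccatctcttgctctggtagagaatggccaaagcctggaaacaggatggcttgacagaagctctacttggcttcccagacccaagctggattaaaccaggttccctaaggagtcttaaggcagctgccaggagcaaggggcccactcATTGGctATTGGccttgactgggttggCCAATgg
Cidec, chr6:113434765-113435014, minus strand: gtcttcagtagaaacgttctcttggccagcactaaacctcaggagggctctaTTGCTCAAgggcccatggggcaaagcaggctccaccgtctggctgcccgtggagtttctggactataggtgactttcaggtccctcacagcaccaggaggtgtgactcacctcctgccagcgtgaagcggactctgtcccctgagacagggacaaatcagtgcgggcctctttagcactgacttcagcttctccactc
Lep, chr6:29059971-29060220, plus strand: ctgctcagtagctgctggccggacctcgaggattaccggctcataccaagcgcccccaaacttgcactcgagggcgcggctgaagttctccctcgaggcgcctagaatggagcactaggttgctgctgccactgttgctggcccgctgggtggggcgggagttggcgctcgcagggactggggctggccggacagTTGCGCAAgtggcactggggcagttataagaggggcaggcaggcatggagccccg
Plin1, chr7:79732777-79733026, minus strand: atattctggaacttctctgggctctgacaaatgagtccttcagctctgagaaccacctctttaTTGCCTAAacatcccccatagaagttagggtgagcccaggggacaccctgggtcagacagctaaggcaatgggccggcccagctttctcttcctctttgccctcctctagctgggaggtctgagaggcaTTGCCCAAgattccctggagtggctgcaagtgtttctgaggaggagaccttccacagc
Pparg, chr6:115421816-115422065, plus strand: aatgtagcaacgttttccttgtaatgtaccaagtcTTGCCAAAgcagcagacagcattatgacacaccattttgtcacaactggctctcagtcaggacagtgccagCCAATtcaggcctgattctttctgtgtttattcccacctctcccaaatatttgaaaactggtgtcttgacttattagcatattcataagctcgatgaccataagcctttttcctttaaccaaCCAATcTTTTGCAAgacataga
Counted from the start, Plin1 held TTGCNNAA at −187 to −180 and −58 to −51, Cidec at −198 to −191, Lep at −55 to −48, and Pparg at −215 to −208 and, on the other strand, −16 to −9. The promoter of Adipoq had no TTGCNNAA and 3 CCAAT boxes, at −34 to −30, −27 to −23 and −7 to −3. CCAAT occurred in 12 of the 28 promoters and in 37.5% of all genes. DR1, the PPAR element of 2 AGGTCA copies spaced by 1 base, was in none of the 28 (0.0407% of all genes), the sterol element TCACNCCAC in Acsl1 and Mlxipl (1.22% of all genes), CACGTG, the E-box, in Lipe and Mlxipl (6.86%), and TATAAA in Cebpa and in another start of Pparg, not printed here (14.3%). TTGCNNAA occurred both in genes whose ratios were near those of Adipoq, Cidec and Plin1, and in Pparg, whose ratios were not.

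Fat-cell genes as a group lay below the WT pool in the 4-week KO nodes and in replicates 1 and 2 of 12 weeks, and near the pool in replicate 3 of 12 weeks and at 30 weeks. The median ratio of the 13 fat-cell genes was −1.20 and −0.39 on the arrays of 4 weeks, −1.38, −1.50 and −0.02 at 12 weeks, and −0.06, −0.18 and 0.48 at 30 weeks. As the mean of the array medians this was −0.79 ± 0.58 (SD, n = 2), −0.96 ± 0.82 (n = 3) and 0.08 ± 0.35 (n = 3), where the median of all genes tested was 0.02, 0.02 and 0.03. Replicate 3 was the highest of the 12-week arrays for 13 of 13 fat-cell genes and the highest of the 30-week arrays for 13 of 13. In order of age and replicate, 13, 10, 12, 13, 7, 8, 11 and 1 of the 13 were below 0. By its sex-linked genes, the KO node of replicate 2 of 12 weeks differed in sex from its pool. In these bulk samples fewer fat cells and less RNA per fat cell cannot be told apart.

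**Figure D1:**
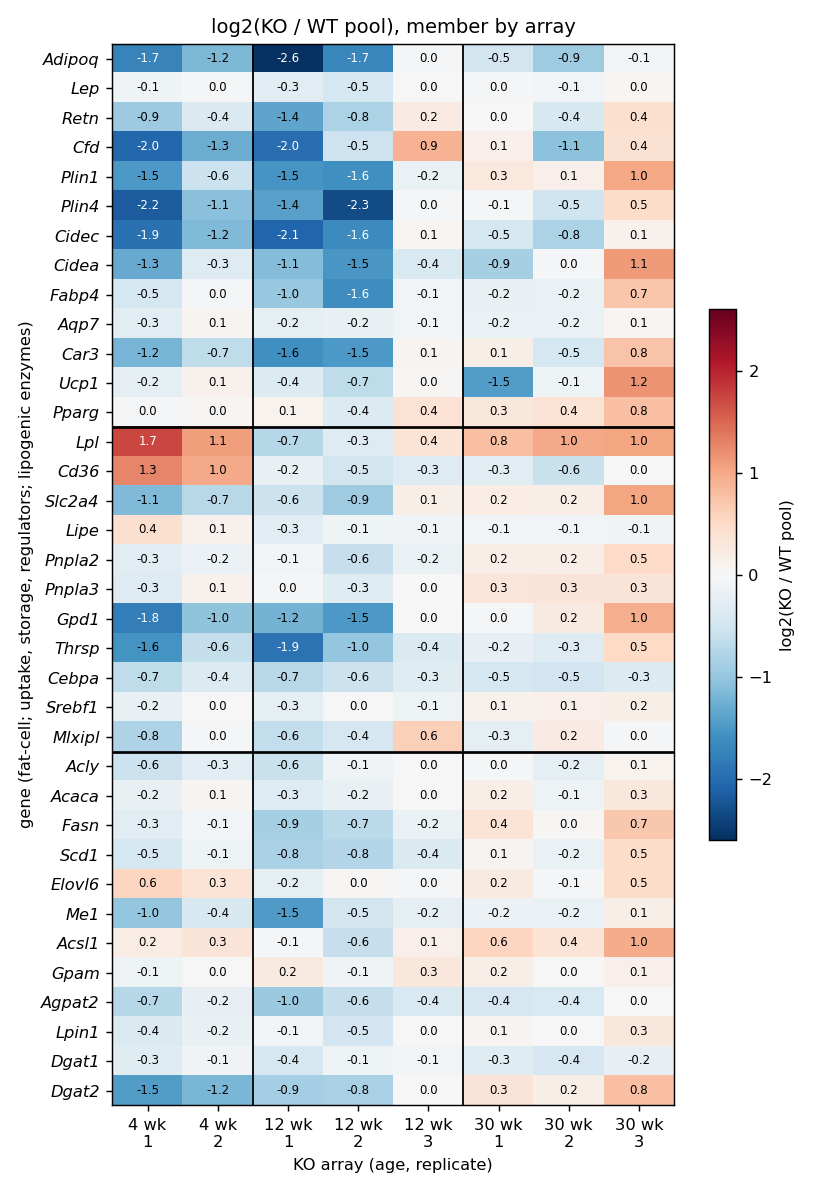
Log2 ratio of KO over WT pool for each of the 36 genes (rows, in the order fat-cell genes, shared genes, lipogenic enzymes) on each of the 8 arrays (columns, by age and replicate), with the ratio to 1 decimal in each cell. Of the 13 fat-cell rows, 13 and 10 are below 0 on the arrays of 4 weeks, 12 and 13 on replicates 1 and 2 of 12 weeks, and 7 on replicate 3 of 12 weeks. There Adipoq was −0.05, against −2.57 and −1.69 on the other two arrays of that age.

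In number of calls, 9 of the 36 genes were called at 4 weeks (25% against 22.7% of all genes), 3 higher (15.3% of all genes) and 6 lower (7.38%). At 12 weeks 2 of 36 were called (5.56% against 2.61%), 0 higher (1.23% of all genes) and 2 lower (1.37%). At 30 weeks 6 of 36 were called (16.7% against 39.1%), 4 higher (20.7% of all genes) and 2 lower (18.4%). For the mean of the 3 ages 16 of 36 were called (44.4% against 44.1%), 2 higher (25.4% of all genes) and 14 lower (18.7%). The total shares were thus at or near the background at 4 weeks and for the mean, and below it at 30 weeks. Single arrays moved these counts: at 4 weeks 0 were called without replicate 1 of 4 weeks, 5 without replicate 2 of 4 weeks and 5 without replicate 1 of 30 weeks; at 12 weeks 0 without replicate 1 of 12 weeks or replicate 1 or 3 of 30 weeks, and 1 without either 4-week array; at 30 weeks 3 without replicate 1 or 3 of that age. For the mean, 5 were called without replicate 1 of 4 weeks and 10 without replicate 1 of 30 weeks.

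The scaling of the arrays set the direction of many calls. With each array centred on its median in place of loess, the median of all genes itself shifted to 0.49, 0.41 and 0.15 at the 3 ages and 0.34 for their mean. The calls were then 9 higher and 1 lower at 4 weeks, 2 and 2 at 12 weeks, 7 and 0 at 30 weeks, and 12 and 2 for the mean. Of all 18410 genes 9749, 10307, 5149 and 12170 were called with median centring, larger shares than among the 36. All 24 lower calls of the single ages and the mean were lost, 6 of them with a change of sign, although 23 of the 24 values stayed below the shifted median of all genes. For the mean of the ages Adipoq became −0.52 (adjusted p = 0.0946, limma), Cidec −0.44 (0.122), Agpat2 −0.16 (0.181) and Cebpa −0.09 (0.369), or −0.86, −0.78, −0.50 and −0.43 relative to the shifted median. Relative to all genes the fat-cell median was −0.93 and −0.79 at 4 and 12 weeks, against −0.82 and −0.98 with loess, and the lipogenic median −0.25 and −0.24, against −0.25 and −0.36. Every fall of one of the 36 genes given below is a value with loess and was not called with median centring.

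Among the secreted proteins, Adipoq encodes adiponectin, a hormone made almost wholly by fat cells. Its level in the WT pool was 10.56 and 10.86 (normalised log2 intensity) at 4 weeks, 11.55 to 11.56 at 12 weeks and 10.75 to 10.77 at 30 weeks, and in KO nodes 8.83 and 9.70, then 8.99, 9.85 and 11.51, then 10.29, 9.83 and 10.70. The ratios were −1.73 and −1.16 at 4 weeks, −2.57, −1.69 and −0.05 at 12 weeks, and −0.48, −0.92 and −0.08 at 30 weeks. All 8 lay below 0, the pool hardly varied within an age after 4 weeks, and the KO values of 12 weeks spread over most of the range seen. Adipoq fell by 1.12 ± 0.24 over the mean of the ages (adjusted p = 0.00673, limma), to 45.9% of the pool, and kept that call without any single array. At single ages it was not called (−1.44 ± 0.48, adjusted p = 0.0631 at 4 weeks; −1.44 ± 0.39, adjusted p = 0.0783 at 12 weeks; −0.49 ± 0.39, adjusted p = 0.355 at 30 weeks).

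Of the other secreted proteins none was called in any contrast. Cfd, which encodes the complement protease adipsin, had ratios of −2.04 and −1.30, then −1.99, −0.54 and 0.91, then 0.13, −1.07 and 0.40. Its 4-week values lay below both other ages except for the first 12-week array and its mean over ages of −0.80 ± 0.30 was not called (adjusted p = 0.0596, limma). Retn, which encodes resistin, had −0.95 and −0.39, then −1.38, −0.82 and 0.22, then 0.01, −0.41 and 0.41, and its mean of −0.44 ± 0.17 was not called either (adjusted p = 0.0661). A second Retn probe had the same pattern, with −0.95 at 4 weeks, −0.88 at 12 weeks and −0.05 at 30 weeks. Lep, which encodes leptin, was not well above background in either channel at 4 weeks, nor in the WT channel at 30 weeks. At 12 weeks the pool was well above background on 3 of 3 arrays and the KO node only on replicate 3, where the ratio was −0.02.

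Of the droplet proteins, Cidec, whose product fuses lipid droplets in white fat, tracked Adipoq most closely. Its ratios were −1.94 and −1.16 at 4 weeks, −2.06, −1.65 and 0.06 at 12 weeks, and −0.46, −0.82 and 0.11 at 30 weeks. The low and the high arrays were those of Adipoq, and the 12-week and 30-week values overlapped. Cidec fell by 1.55 ± 0.45 at 4 weeks (adjusted p = 0.0387, limma) and by 1.05 ± 0.23 over the mean of the ages (adjusted p = 0.00649). The call at the mean held without any single array, whereas that at 4 weeks was lost without either 4-week array (adjusted p = 0.453 and 0.0891) and without replicate 1 or 3 of 30 weeks (0.061 and 0.052).

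Plin4, a perilipin of nascent droplets, had ratios of −2.17 and −1.10, then −1.41, −2.33 and −0.04, then −0.06, −0.51 and 0.48. It fell by 1.63 ± 0.47 at 4 weeks (adjusted p = 0.04, limma), a call lost without any of 5 of the 8 arrays, replicates 1 and 2 of 4 weeks, replicate 1 of 12 weeks and replicates 1 and 3 of 30 weeks (adjusted p = 0.499, 0.0725, 0.0512, 0.0629 and 0.0543). It fell by 0.97 ± 0.24 over the mean of the ages (adjusted p = 0.012), lost without replicate 1 of 4 weeks (adjusted p = 0.0813). Plin1, perilipin 1, which gates access of lipases to the droplet, had −1.49 and −0.56, then −1.53, −1.60 and −0.18, then 0.27, 0.13 and 1.00. Every 30-week value lay above every 12-week value, yet the difference of 1.57 ± 0.42 was not called (adjusted p = 0.103). Plin1 fell by 0.55 ± 0.19 over the mean of the ages (adjusted p = 0.0399), a call lost without replicate 1 of 4 weeks (adjusted p = 0.209), replicates 1 or 2 of 12 weeks (0.0938 and 0.0703), replicates 1 or 2 of 30 weeks (0.0889 and 0.0807), and replicate 2 of both later ages (0.103). Cidea, the CIDE protein of brown fat, ranged from −1.51 to 1.11 over the arrays and was not called in any contrast.

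**Figure D2:**
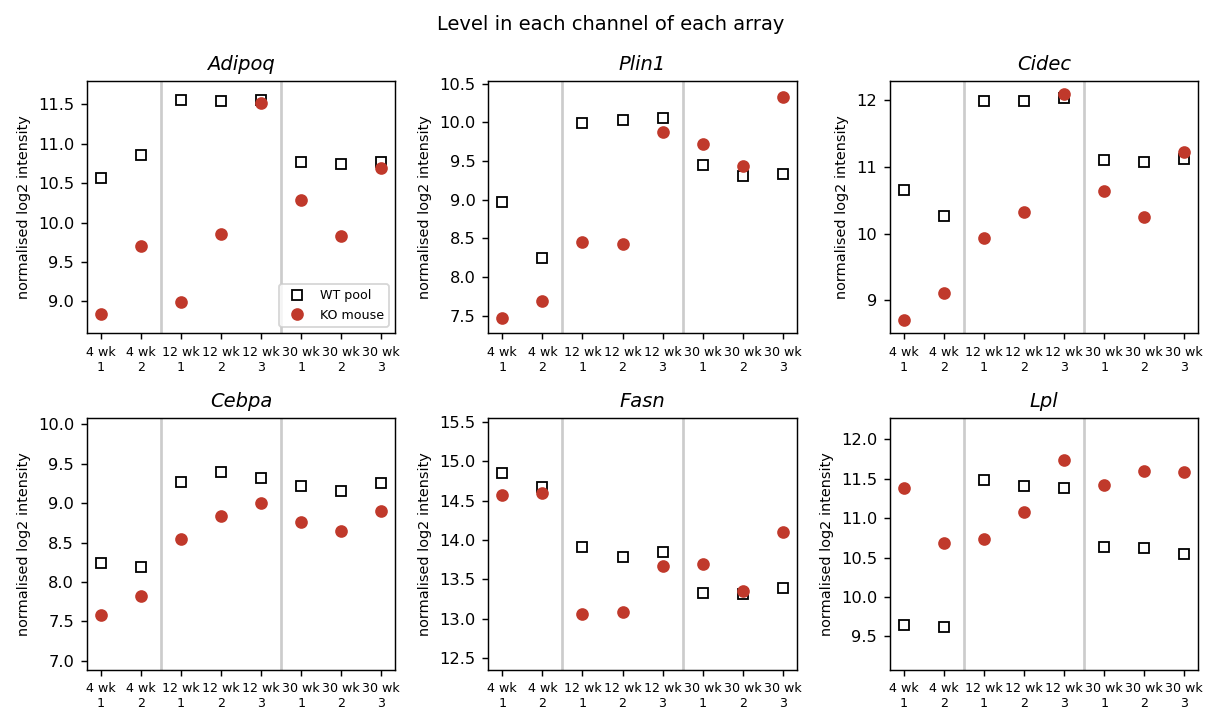
Normalised log2 intensity of 6 genes in the WT channel (open squares) and KO channel (filled circles) of each array, by age and replicate. For Adipoq, Plin1, Cidec and Fasn the WT pool stays level within 12 and 30 weeks while the KO values move, and for Cebpa the KO value is below the pool on all 8 arrays.

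The spread within an age came mostly from the KO channel. At 12 weeks the SD of the KO level was larger than that of the WT level in 35 of the 36 genes (median SD 0.36 against 0.05), and at 30 weeks in 34 of 36 (0.27 against 0.04). At 4 weeks, with 2 arrays, it was larger in 14 of 36 (0.18 against 0.26). Whether arrays of an age shared their pool is not given in the sources used here. Over all genes the correlation of WT channels within an age was 0.984 for 4 weeks and between 0.998 and 0.999 for the later ages.

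Car3, a carbonic anhydrase abundant in fat, had ratios of −1.20 and −0.67, then −1.59, −1.50 and 0.07, then 0.15, −0.45 and 0.75. It fell by 0.60 ± 0.20 over the mean of the ages (adjusted p = 0.0424, limma), but the call was lost without any of 6 of the 8 arrays, all but replicate 3 of 12 weeks and replicate 3 of 30 weeks (adjusted p = 0.075 to 0.181), and without replicate 2 of both later ages (0.11), and median centring turned the value to 0.03. With the mean of its probes Car3 was not called for the mean of the ages (−0.51, adjusted p = 0.0592, limma). A second Car3 probe had −0.38, −0.46 and −0.45 at 4, 12 and 30 weeks. At 4 weeks that probe was well above background on 1 array in each channel. Fabp4, the fatty-acid carrier of fat cells and macrophages, had −0.46 and −0.03, then −0.98, −1.62 and −0.07, then −0.20, −0.17 and 0.72, and was not called in any contrast. Ucp1, the uncoupling protein of brown fat, was at background in both channels at 4 weeks and in the KO channel on replicate 2 of 12 weeks and replicate 1 of 30 weeks. Where both channels were above background at 30 weeks its ratios were −0.11 and 1.17. Aqp7, the glycerol channel of fat cells, was at background in both channels at 4 weeks and on replicates 1 and 2 of 30 weeks. On the other 4 arrays its ratios were −0.23, −0.19, −0.07 and 0.05.

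The regulators did not share one pattern. Cebpa, which encodes C/EBPα, had ratios of −0.66 and −0.36 at 4 weeks, −0.72, −0.56 and −0.32 at 12 weeks, and −0.45, −0.51 and −0.35 at 30 weeks. It was below the pool on all 8 arrays, with all ages overlapping, and without the gap between mice seen for Adipoq. It was the only one of the 36 genes called at each age. Cebpa fell by 0.51 ± 0.11 at 4 weeks (adjusted p = 0.0137, limma), by 0.53 ± 0.09 at 12 weeks (0.0342), by 0.44 ± 0.09 at 30 weeks (0.00673) and by 0.49 ± 0.06 over the mean of the ages (0.000541). The calls at 30 weeks and for the mean held without any single array. The call at 4 weeks was lost without replicate 1 of 4 weeks (0.276) or with the mean of both probes (−0.24, adjusted p = 0.0812), and that at 12 weeks without replicate 1 of 12 weeks (0.143) or replicates 1 or 3 of 30 weeks (0.0717 and 0.069). A second, dimmer Cebpa probe had −0.43 at 12 weeks and −0.32 at 30 weeks, and was not well above background at 4 weeks.

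Pparg, the other master regulator, had ratios of −0.03 and 0.04, then 0.08, −0.36 and 0.37, then 0.29, 0.36 and 0.78. It was not lower at any age, and it rose by 0.48 ± 0.14 at 30 weeks (adjusted p = 0.0251, limma), where all 3 arrays were above 0. That call was lost without replicate 1, 2 or 3 of 30 weeks (adjusted p = 0.0513, 0.0521 and 0.166). Srebf1, which drives lipogenic enzymes, kept within −0.25 and 0.15 on every array, and Mlxipl, the carbohydrate-response factor ChREBP, ranged from −0.80 to 0.62. Neither was called with loess scaling, and with median centring Srebf1 became higher, as listed with the processing alternatives.

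Genes of lipid and glucose uptake went in opposite directions at 4 weeks. Lpl, lipoprotein lipase, which frees fatty acids from circulating triglyceride and is also made by macrophages, had ratios of 1.74 and 1.08 at 4 weeks, −0.75, −0.33 and 0.36 at 12 weeks, and 0.79, 0.98 and 1.03 at 30 weeks. The 12-week values lay below those of both other ages without overlap. Lpl rose by 1.41 ± 0.24 at 4 weeks (adjusted p = 0.00497, limma), by 0.93 ± 0.19 at 30 weeks (0.00649) and by 0.70 ± 0.12 over the mean of the ages (0.00246), and was not called at 12 weeks (−0.24 ± 0.19, adjusted p = 0.463). The 30-week call and that for the mean held without any single array, and the 4-week call was lost without replicate 1 of 4 weeks (1.08, adjusted p = 0.14). The probe matters: a second Lpl probe, well above background on all arrays, had 0.12 at 4 weeks, −0.75 at 12 weeks and 0.14 at 30 weeks, and with the mean of both probes Lpl was not called for the mean of the ages (0.27, adjusted p = 0.084).

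Cd36, a fatty-acid transporter of fat cells, macrophages and capillaries, had ratios of 1.26 and 0.99 at 4 weeks, −0.19, −0.47 and −0.34 at 12 weeks, and −0.29, −0.57 and 0.01 at 30 weeks. The 4-week arrays stood above all later ones. It rose by 1.13 ± 0.14 at 4 weeks (adjusted p = 0.0013, limma), which without replicate 1 of 4 weeks was 0.99 with an adjusted p of 0.0511, and a second probe had 0.59, −0.30 and −0.16 at the 3 ages. Slc2a4, the insulin-responsive glucose transporter GLUT4 of fat and muscle, had −1.15 and −0.71, then −0.57, −0.93 and 0.15, then 0.20, 0.17 and 1.02. It fell by 0.93 ± 0.27 at 4 weeks (adjusted p = 0.04), a call lost without replicate 1 or 2 of 4 weeks (0.448 and 0.0965) or replicate 1 of 30 weeks (0.0557).

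The differences between ages were tested directly. Between 12 and 4 weeks, Cd36 differed by −1.46 ± 0.18 (adjusted p = 0.00615, limma) and Lpl by −1.65 ± 0.31 (adjusted p = 0.0215), and no other of the 36 was called, where 6.98% of all genes were, 1.37% higher and 5.61% lower. With the arrays of these ages alone Lpl was not called (adjusted p = 0.0733), and with median centring Cd36 was not (0.0552). Without replicate 1 of 4 weeks neither was called (−1.32, adjusted p = 0.0769 for Cd36, and −1.32, adjusted p = 0.207 for Lpl). Between 30 and 12 weeks none of the 36 was called by limma, against 0.777% of all genes (0.32% higher and 0.456% lower), although 14 had an unadjusted p under 0.05 (38.9%, against 21.2% of all genes) and 34 were higher at 30 weeks (94.4% against 51.2%). Median centring changed the sign of this difference in 7 of the 36. Without replicate 1 of 12 weeks 1 was called. In 13 of the 36 genes (36.1%) every 30-week value lay above every 12-week value, as in 12.8% of 18390 genes. These counts use the brightest probe of each gene. Of 23 other probes, from 17 of the genes, 17, 22 and 12 had the sign of the brightest probe at 4, 12 and 30 weeks. Slide 2 held the 12-week arrays and replicate 1 of 30 weeks, so within it the difference rests on a single 30-week array. It was above 0 for 32 of 36 genes, against 34 of 36 with the 30-week arrays of the other slide. The sizes were near each other for Adipoq (0.96 and 0.94) and Plin4 (1.20 and 1.24), and apart for Cidea (0.15 and 1.55), Fabp4 (0.69 and 1.16) and Ucp1 (−1.13 and 0.86), whose KO signal was at background on the single array.

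Lipases varied little on their brightest probes. Lipe, hormone-sensitive lipase, kept within −0.28 and 0.41, Pnpla2, adipose triglyceride lipase, within −0.60 and 0.49, and neither was called on these probes. A second Lipe probe had 0.00, −0.46 and −0.42 at 4, 12 and 30 weeks, and a second Pnpla2 probe −0.13, −0.53 and −0.26. The brightest Pnpla2 probe had 0.28 at 30 weeks. The Pnpla2 probe lies on chromosome 7 at 158 kb from that of Deaf1 (mm8 coordinates of the files). Pnpla3, a relative of Pnpla2 in fat and liver, rose by 0.32 ± 0.09 at 30 weeks (0.32, 0.33 and 0.33; adjusted p = 0.0261, limma), a call lost without any 30-week array (adjusted p = 0.101, 0.0846 and 0.105) and without replicate 2 of both later ages (0.0502). With the scanner's own log ratio its value was 0.95 and not called (0.081). The WT pool was well above background on 1 of the 3 arrays of 30 weeks, so this rise is measured against a dim pool, and the 4-week KO signal was not well above background.

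Several glyceride-building enzymes fell. Gpd1, which makes the glycerol 3-phosphate backbone, had ratios of −1.80 and −1.05, then −1.22, −1.49 and 0.00, then −0.04, 0.24 and 0.95. It fell by 1.42 ± 0.36 at 4 weeks (adjusted p = 0.0233, limma), lost without replicate 1 or 2 of 4 weeks (0.369 and 0.0564), and by 0.65 ± 0.18 over the mean of the ages (0.0199), lost without replicate 1 of 4, 12 or 30 weeks (0.118, 0.0505 and 0.0519). Dgat2, which adds the last acyl chain of triglyceride, had −1.46 and −1.19, then −0.89, −0.84 and 0.01, then 0.33, 0.16 and 0.78. All 30-week values lay above all others. Dgat2 fell by 1.33 ± 0.22 at 4 weeks (adjusted p = 0.00473) and by 0.49 ± 0.11 over the mean of the ages (0.00843), and both calls were lost without replicate 1 of 4 weeks (0.119 and 0.0558), while median centring turned the mean to 0.14. Of its other probes, the one well above background at 4 weeks had −1.04 there.

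Dgat1, which catalyses the same step, fell at 30 weeks, where the brightest Dgat2 probe had 0.42 ± 0.18 (adjusted p = 0.0954, limma). The other Dgat2 probes, well above background on all 30-week arrays, had −0.28 and −0.08 there. The Dgat2 value above 0 at 30 weeks thus rests on 1 probe, and the difference between both genes was not tested. The Dgat1 ratios were −0.31 and −0.09, then −0.45, −0.14 and −0.07, then −0.31, −0.44 and −0.22, all below 0. Dgat1 fell by 0.32 ± 0.09 at 30 weeks (adjusted p = 0.0211, limma) and by 0.25 ± 0.06 over the mean of the ages (0.00767), and a second probe had −0.55 at 30 weeks. The 30-week call was lost without replicate 1, 2 or 3 of 30 weeks (0.0854, 0.109 and 0.0542) and without replicate 2 of both later ages (0.096). The call for the mean was lost without replicate 1 of 4 weeks (0.0519), and median centring turned the mean to 0.14. Agpat2, whose loss in humans causes generalised lipodystrophy, was below 0 on all 8 arrays, from −0.96 to −0.01, and fell by 0.47 ± 0.09 over the mean of the ages (adjusted p = 0.00331), with or without any single array. Gpam and Lpin1, which act before and after it, kept within −0.50 and 0.30 and were not called, with Gpam at background in the KO nodes of 4 weeks.

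Among the genes of fatty acid synthesis, Scd1 was called at 12 weeks and Fasn at no age. Fasn, fatty acid synthase, had ratios of −0.28 and −0.07, then −0.86, −0.70 and −0.17, then 0.36, 0.04 and 0.70. Every 30-week value was above every 12-week value on this probe, but the 12-week value was not called (−0.58 ± 0.15, adjusted p = 0.072, limma). On a second Fasn probe, well above background on all arrays, these ages overlapped, with means of −0.40 at 12 weeks and −0.04 at 30 weeks. Scd1, the main desaturase, had −0.46 and −0.14, then −0.83, −0.76 and −0.38, then 0.07, −0.18 and 0.47. All 12-week values were below 0 and below all 30-week values. Scd1 fell by 0.66 ± 0.13 at 12 weeks (adjusted p = 0.0471), but the call was lost without any of 7 of the 8 arrays, all but replicate 2 of 30 weeks (adjusted p = 0.0566 to 0.198), and median centring turned it to 0.07.

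Me1, malic enzyme, which supplies NADPH for synthesis, had ratios of −1.01 and −0.41, then −1.47, −0.49 and −0.24, then −0.15, −0.18 and 0.15. It fell by 0.50 ± 0.13 over the mean of the ages (adjusted p = 0.0161, limma), lost without replicate 1 of 4 weeks (0.101) or with the mean of its probes (−0.25, 0.0601). Thrsp, which encodes Spot 14, a nuclear protein that follows lipogenesis, had −1.55 and −0.61, then −1.92, −1.0 and −0.37, then −0.22, −0.33 and 0.52, and fell by 0.73 ± 0.18 over the mean (0.0125), lost without the same array (0.0845). Both genes were lowest on replicate 1 of 12 weeks, as Adipoq was.

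Acly, ATP citrate lyase, fell by 0.24 ± 0.07 over the mean of the ages (adjusted p = 0.0304, limma) and Scd1 by 0.28 ± 0.08 (0.0261). Median centring turned these means to 0.30 and 0.40, both calls were lost without replicate 1 of 4 weeks (0.153 and 0.139), and also without replicates 1 or 2 of 30 weeks for Acly (0.0614 and 0.0656), and without replicate 1 of 12 weeks (0.0602), replicates 1 or 2 of 30 weeks (0.0613 and 0.0504), or replicate 2 of both later ages (0.064) for Scd1. Acaca, acetyl-CoA carboxylase, kept within −0.34 and 0.29 and was not called.

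Elovl6 and Acsl1 were each called higher at 1 age. Elovl6, an elongase, had ratios of 0.55 and 0.35, then −0.23, 0.02 and −0.03, then 0.23, −0.05 and 0.48. Both 4-week values were above all those of 12 weeks. Elovl6 rose by 0.45 ± 0.13 at 4 weeks (adjusted p = 0.035, limma), lost without either 4-week array (0.412 and 0.0859), replicate 3 of 12 weeks (0.0532) or replicate 1 of 30 weeks (0.0598). It rose by 0.20 ± 0.06 over the mean (0.036), lost without any of 6 of the 8 arrays, all but replicate 1 of 12 weeks and replicate 2 of 30 weeks (adjusted p = 0.0564 to 0.164). Acsl1, which activates long-chain fatty acids, had 0.18 and 0.34, then −0.05, −0.60 and 0.14, then 0.56, 0.35 and 0.97, and rose by 0.63 ± 0.15 at 30 weeks (0.0118), lost without replicate 3 of 30 weeks (0.0868). Its other 2 probes had −0.10 and 0.02 at 30 weeks, and the mean of its probes was not called (0.18, adjusted p = 0.267). Acsl5, another long-chain acyl-CoA synthetase, outside the members, fell by 0.57 ± 0.10 at 30 weeks (0.00281).

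**Figure D3:**
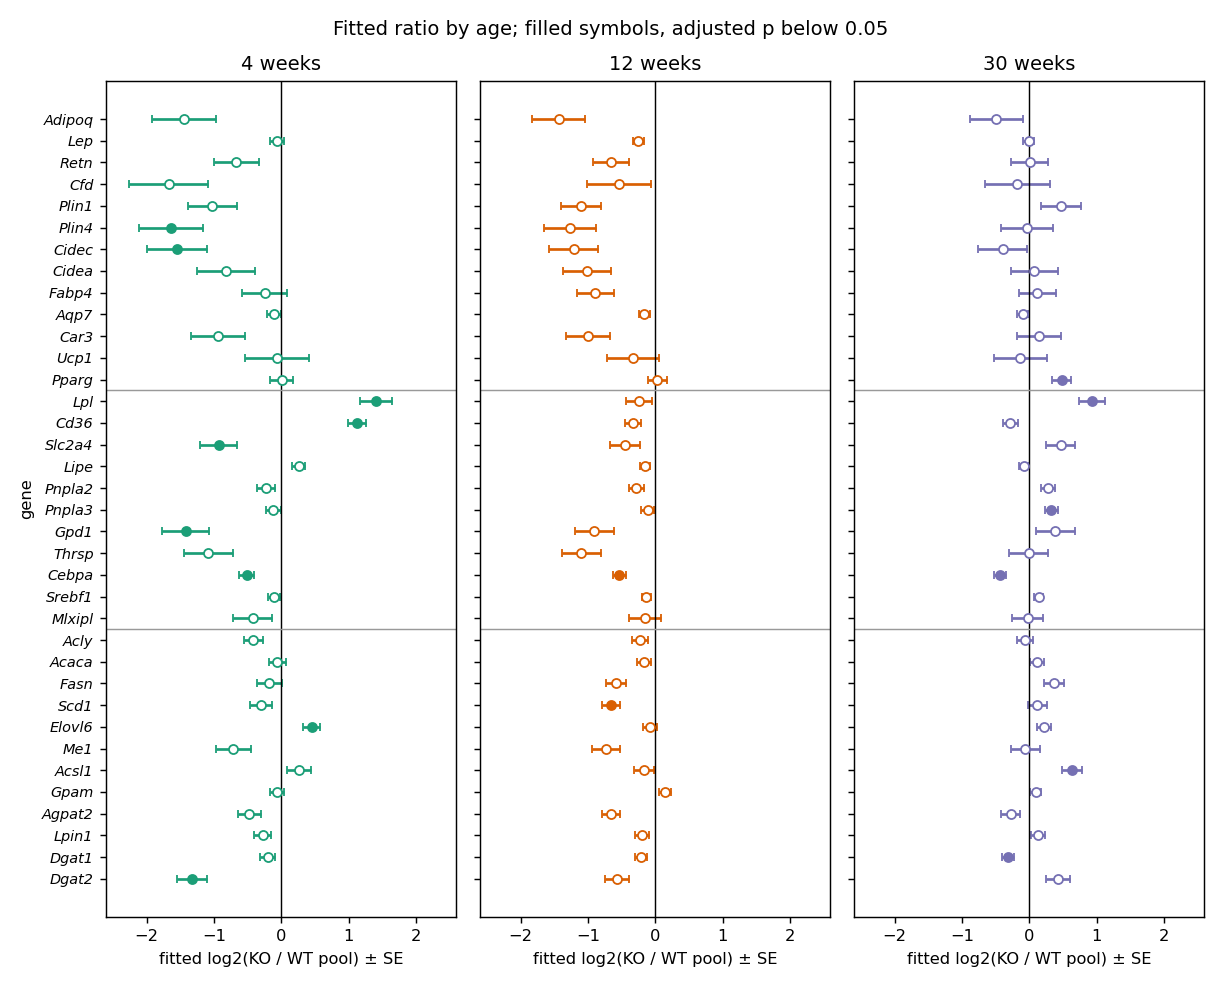
Fitted log2 ratio of KO over WT pool with its SE for the 36 genes at 4, 12 and 30 weeks; filled symbols are called (adjusted p under 0.05, limma, over all genes), and grey lines separate fat-cell genes, shared genes and lipogenic enzymes. Most fat-cell genes lie left of 0 at 4 and 12 weeks, and Cebpa is filled in all 3 panels.

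Fat-cell genes were further from the pool than lipogenic enzymes on the arrays where both were low. The median of the 12 lipogenic enzymes was −0.34 and −0.12 at 4 weeks, −0.51, −0.49 and −0.02 at 12 weeks, and 0.11, −0.09 and 0.29 at 30 weeks. On the same arrays the fat-cell median minus the lipogenic median was −0.86 and −0.27, then −0.87, −1.0 and 0.00, then −0.17, −0.08 and 0.18. It was −0.27 or lower on both 4-week arrays and on replicates 1 and 2 of 12 weeks, and close to 0 on the third 12-week array. Of the fat-cell genes 0 were called higher and 5 lower for the mean of the ages (38.5%), of the lipogenic enzymes 1 and 6 (58.3%). Of all genes 44.1% were called, 25.4% higher and 18.7% lower. The share called was thus no larger among fat-cell genes, whose replicates spread more, although their median ratio was larger in size. Under median centring the lipogenic median was above 0 at 4 and 12 weeks (0.24 and 0.17) while the fat-cell median stayed below it (−0.44 and −0.38).

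**Figure D4:**
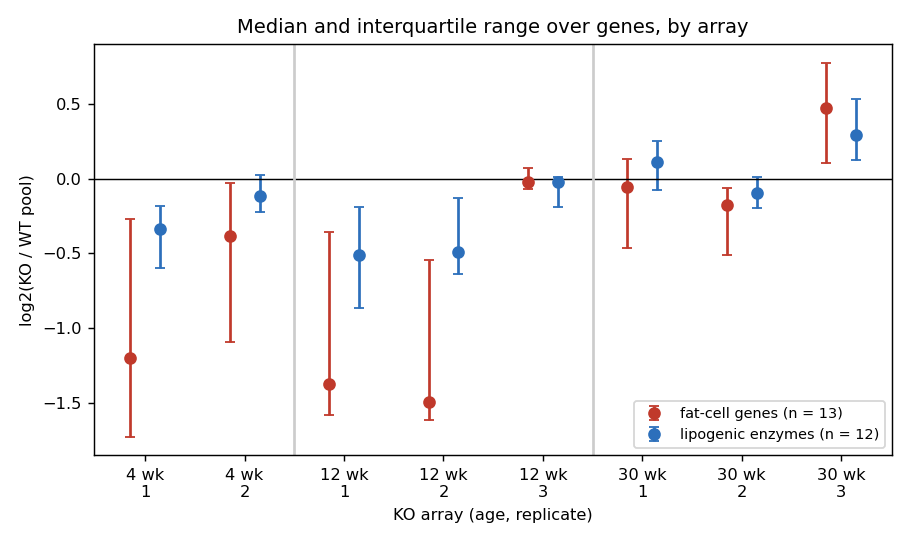
Median log2 ratio of KO over WT pool (points) and interquartile range over genes (bars) for the 13 fat-cell genes and the 12 lipogenic enzymes on each array, by age and replicate. The fat-cell median is below the lipogenic median on both 4-week arrays and on replicates 1 and 2 of 12 weeks, and equal to it within 0.01 on replicate 3 of 12 weeks.

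The summed intensity of the 13 fat-cell genes was 25124 to 33427 in the WT pools and 17861 to 19090 in KO nodes at 4 weeks, and 46498 to 51535 against 20522 to 54249 at 12 weeks. At 30 weeks it was 31979 to 32996 against 24923 to 48115. The ranges were apart at 4 weeks and overlapped later. Such a sum is weighted to the brightest genes. In the 4-week pools the mean log2 level was 13.93 for Fabp4, which macrophages also make, 12.59 for Cfd and 10.71 for Adipoq. The acinar sum at 30 weeks was 187216 to 677922 in the pools and 27354 to 2994160 in KO nodes, and its part in the 30-week values was not tested. At 12 weeks the acinar median was −0.33, 0.23 and 0.65 on the arrays whose fat-cell medians were −1.38, −1.50 and −0.02. At 4 weeks both medians were lower in replicate 1. Without replicate 2 of 12 and of 30 weeks the fat-cell medians were −0.70 at 12 weeks and 0.21 at 30 weeks, and without replicate 3 they were −1.44 and −0.12.

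The genes outside the list whose ratios were most like those of Adipoq, by root-mean-square difference over the 8 arrays, were an unnamed probe (0.476), Rbp4 (0.573), H2-Ea (0.598), Hp (0.621), Cdo1 (0.626), Apoc1 (0.676), Nnmt (0.725), Kazald1 (0.729), an unnamed transcript (0.731) and Mpo (0.735). Rbp4, the retinol carrier, had ratios of −1.06 and −0.57, then −1.80, −1.61 and −0.03, then 0.11, −0.15 and 0.48. The low arrays were again those of 4 weeks and replicates 1 and 2 of 12 weeks. Of the 10 genes nearest to Adipoq, 5 were in the list: Cidec (0.213), Thrsp (0.513), Plin4 (0.568), Car3 (0.594) and Cfd (0.644). Lpl was among the least alike (1.90, rank 18045 of 18409), and Pparg stood at rank 10286.

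Other genes of lipid metabolism, from lists chosen beside the members, gave the setting. Of 10 further lipolysis and droplet genes, 0 were called higher and 3 lower at 4 weeks, 0 and 3 at 12 weeks, and 1 and 3 at 30 weeks (medians −0.27, −0.11 and −0.13). Mgll, monoacylglycerol lipase, fell by 0.51 ± 0.10 at 4 weeks (adjusted p = 0.0101, limma) and by 0.72 ± 0.08 at 12 weeks (0.0151), and Pde3b, the phosphodiesterase by which insulin restrains lipolysis, fell by 0.45 ± 0.06 at 30 weeks (0.00135). Of 12 sterol synthesis genes 4 were called higher and 0 lower at 4 weeks and 2 and 5 at 30 weeks (medians 0.24 and −0.13). Of 19 other fatty acid genes 4 and 3 were called at 4 weeks, 0 and 0 at 12 weeks and 5 and 4 at 30 weeks, and of 10 genes of fatty acid oxidation 3 and 1, 0 and 0, and 4 and 3. Of 13 other regulators of fat 2 and 2, 0 and 0, and 3 and 3 were called. These shares are to be read against 22.7%, 2.61% and 39.1% of all genes.

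Markers of other cells differed from the pool on the same arrays. At 4 weeks 4 of 10 stromal genes were called higher and 0 lower, and 3 of 10 endothelial genes higher and 1 lower. Of 9 macrophage genes 3 were called higher and 1 lower, beside the rise of Lpl and Cd36. Of all genes 15.3% were called higher and 7.38% lower at 4 weeks. Lyve1, of lymphatic endothelium, rose by 1.71 ± 0.21 (adjusted p = 0.00139, limma). The macrophage sum was 123420 to 140538 in the pools and 160139 to 174596 in KO nodes at 4 weeks, and 190475 to 207383 against 202393 to 240069 at 12 weeks, where Lpl and Cd36 were not called. At 30 weeks, where Lpl was called again, the macrophage sum was 169092 to 184227 in the pools and 210714 to 238661 in KO nodes, while 2 of the 9 macrophage genes were called higher and 4 lower (median −0.31). Of the stromal genes 2 were then called higher and 1 lower, of the endothelial genes 1 and 4, and of 14 lymphocyte genes 2 and 7, where 39.1% of all genes were called. The part of these cells in the result was not tested. Of 6 brown-fat genes, 3 in the WT channel and 2 in the KO channel were well above background on all arrays. At 4, 12 and 30 weeks 0, 1 and 1 of them were called higher and 0, 0 and 1 lower (medians −0.33, −0.30 and 0.10). Of all genes 15.3%, 1.23% and 20.7% were called higher. The gene called higher was Ppargc1a, a coactivator also used outside fat. It rose by 0.39 ± 0.07 at 12 weeks (0.032) and by 0.58 ± 0.07 at 30 weeks (0.00103). Dio2 fell by 0.24 ± 0.06 at 30 weeks (0.0103). Of 9 islet genes 4 were tested and 0 were well above background on all arrays in either channel, and Iapp rose by 0.22 ± 0.07 at 30 weeks (0.0354). Of 10 muscle genes 6 were tested, and 2 were well above background on all arrays in each channel. Of these 6 muscle genes 0 were called higher and 1, 2 and 3 lower at 4, 12 and 30 weeks, and 5 lower for the mean of the ages. Their array medians ran from −0.35 to −0.09. Of all genes 7.38%, 1.37%, 18.4% and 18.7% were called lower in these contrasts. Myh2, a myosin of fast muscle, fell by 0.67 ± 0.06 at 12 weeks (0.00651), beside the low fat-cell genes of that age. The part of muscle in these values was not tested.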

How the data were processed

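Messenger RNA was measured on Agilent mouse arrays of 2 colours, 1 per knockout mouse. Mean spot and median background intensities were deposited by the authors as written by Agilent Feature Extraction 9.5.3.1 (4 weeks) and 10.2.1.3 (later ages), per the file headers, with processed intensities and a log10 ratio of red over green. The deposited series matrix holds log2 ratios whose medians per array run from −0.21 to 0.15. The software behind it is not given in the sources used here.

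With limma 3.58.1 in R 4.3.3, mean intensities were corrected by normexp (offset 50), normalised by loess within arrays without control spots, and averaged over the spots of a probe without outlier flags. Levels of a channel were scaled across arrays with Aquantile. A probe was kept (27464 of 41174) where, for 1 age or more, every array had it well above background in one channel. Genes were named through RefSeq (GRCm38.p6) accessions for 24375 probes, current symbols for 6301 and synonyms for 2426, and 8072 kept the name in the file. 6 contrasts were tested two-sided on 18410 genes (5 residual and 3.40 prior degrees of freedom), and the model was checked on simulated data. Every gene of the list is named, with the 10 genes outside it nearest to Adipoq and up to 3 called genes with the smallest p of each other list. The members and lists were chosen with earlier results of these data known. Alternatives were the background correction, scaling, filter, probe choice, blocks, the arrays fitted and leaving out each array, and 1, without replicate 2 of 12 and 30 weeks, was added after seeing the data. The labels call the arrays biological replicates.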

Additional observations from a re-analysis of the deposited data

Results flagged for a closer look

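Cd36 and Lpl were singled out because their effect differed between ages by a test of the difference itself: from 4 to 12 weeks the ratio of Cd36 differed by −1.46 (adjusted p = 0.00615, limma) and that of Lpl by −1.65 (adjusted p = 0.0215). Both were higher in 2 of 2 knockout nodes at 4 weeks, Cd36 was below the pool in 3 of 3 nodes at 12 weeks and Lpl in 2 of 3. The 4-week arrays had their own slide, scanner and pools, so age and batch cannot be told apart. A second probe had 0.59 at 4 weeks and −0.30 at 12 weeks for Cd36, and 0.12 and −0.75 for Lpl.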

How the results depend on the processing

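With each array left out in turn, the number of the 36 genes called ranged from 0 to 13 at 4 weeks, 0 to 3 at 12 weeks, 3 to 8 at 30 weeks, 5 to 22 for the mean of the ages, 0 to 2 for 12 minus 4 weeks and 0 to 1 for 30 minus 12 weeks, and the count of 0 at 4 weeks was without replicate 1 of 4 weeks. At 4 weeks (9 called) the count was 15 with a normexp offset of 16, and 21 with the scanner's log ratio or the deposited matrix. It was 18 with slide as a random block and 19 with the 4-week arrays alone. Calls over all 18410 genes moved from 4179 to 5103, 6408, 6493, 6617 and 4840 in these settings, in the same order. At 12 weeks (2 called) the count was 1 with the offset of 16, the scanner's ratio, the deposited matrix or the mean of a gene's probes. It was 4 with median centring, 30 with the random slide block and 0 with the 12-week arrays alone. Calls over all genes moved from 480 to 348, 174, 180, 313, 10307, 8977 and 6 in these settings, in the same order. With the random slide block (estimated correlation −0.259) the count was 10 at 30 weeks, 27 for the mean, 5 for 12 minus 4 weeks and 11 for 30 minus 12 weeks. Over all genes this block gave 9015, 11551, 4480 and 2339 calls, against 7191, 8124, 1285 and 143 without it. For 12 minus 4 weeks the count was 1 with median centring and 1 with the arrays of these ages alone, where 51 and 183 of all genes were called. Without replicate 2 of 12 and of 30 weeks, 3 were called higher and 8 lower at 4 weeks and 0 and 3 at 12 weeks. There were 6 and 1 at 30 weeks, and 5 and 11 for the mean. Of these 9, 2, 4 and 13 were also called with all arrays, and over all genes 5024, 1845, 6600 and 8508 were called.

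The replicate number as a block gave 9 calls at 12 weeks and 10 at 30 weeks, where 314 and 6591 of all genes were called. Of 7 pairs with the same number, the deviations from the mean of their age correlated at −0.08 to 0.24, with 2 over 0.1. With 2 or 3 arrays an age, these values cannot show whether the numbers pair the mice. The lipogenic median at 4 weeks was −0.53 with the scanner's ratio and the deposited matrix and 0.24 with median centring, and at 12 weeks 0.17 with median centring. Under median centring 8, 17, 7 and 14 of the 36 genes changed sign at 4, 12 and 30 weeks and for the mean of the ages. Those of them called under either scaling were, at 4 weeks, Fasn 0.75, Pnpla2 0.69 and Srebf1 0.81, at 12 weeks Scd1 0.068 and Srebf1 0.64, and for the mean of the ages Acly 0.30, Car3 0.029, Dgat1 0.14, Dgat2 0.14, Fasn 0.63, Lpin1 0.32, Pnpla2 0.57, Scd1 0.40 and Srebf1 0.68. With the mean of its probes Lipe was −0.14 for the mean of the ages and was called lower (adjusted p = 0.0467, limma). The causes were not tested. The fat-cell medians of 4 and 12 weeks kept their sign under all alternatives run, and that of 30 weeks was −0.08 with the scanner's ratio. Signal over background limits Lep, Aqp7 and Ucp1 at 4 weeks, and Lep and Aqp7 at 30 weeks.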
